A study of Homo sapiens with 3 samples.

Results

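The S100 genes of epithelial cells were examined in a bladder cancer line before and after it acquired resistance to gemcitabine. The 10 members were chosen by name: S100A2, S100A4, S100A6, S100A7, S100A8, S100A9, S100A10, S100A11, S100A14 and S100P. Of these, 9 were found among 29960 genes, and S100A7 was not analysed here. The cells are 5637, an established human bladder cancer line cultured in RPMI with 10% FBS. The parental group (5637P) is wild type for genotype in the labels. The resistant group (5637GR) is labelled as gemcitabine resistant. Both groups were untreated when RNA was taken, so no library is from cells in the drug. The labels describe the selection as acute, while the methods of the study describe repeated rounds of rising doses with recovery in between, after which the resistant cells were kept without the drug. Each library is from a single-cell clone, so a clone and its group cannot be told apart within 1 library. Counts were available by label for 3 libraries, 1 parental and 2 resistant, with 14475531, 15836788 and 17461941 reads on genes. The deposited mean of normalized counts per group was used beside them, which carries no spread and also draws on libraries not used here one by one.

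S100 proteins are small calcium-binding proteins with paired EF-hand motifs that work mostly as dimers, inside the cell on cytoskeletal and annexin partners and outside it as ligands of receptors such as AGER and TLR4. Most of their genes lie in a cluster on the long arm of chromosome 1, interspersed with genes of the cornified envelope of squamous epithelium. Several of them are known as markers of epithelial differentiation state, and S100A8 with S100A9 forms calprotectin, abundant in neutrophils and induced in squamous epithelium.

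S100A14 was higher in the resistant cells and S100A9 had fewer reads there, while the 4 abundant S100 genes did not pass the test in either direction. Levels are given as CPM, which are read counts relative to the library total, after TMM scaling. Differences are the log2 fold change of edgeR's quasi-likelihood fit on the 3 libraries over 15643 genes, in which the lone parental library is assumed to vary like the resistant ones. Of the 9 members, 7 passed the filter on low counts and entered this fit, and 1 of them was called at an adjusted p under 0.05 (edgeR). Across all tested genes 0.876% were called, 0.294% as higher and 0.582% as lower in the resistant line. The other 2 members, S100A8 and S100P, were below the filter. S100A9 passed the filter through the parental library alone, so its entry into the fit required a difference.

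S100A14 (ENSG00000189334, chromosome 1, 153586731 to 153589462 in the hg19 coordinates of the processing notes, minus strand) encodes an S100 protein found mainly in epithelial cells. It was read at 1.70 CPM in the parental library, from 24 reads. The resistant libraries gave 11.8 CPM from 193 reads and 15.0 CPM from 261 reads. Both resistant libraries lay far above the parental one, by 6.93-fold and 8.83-fold, and close to each other. The 95% exact Poisson interval of the parental value, 1.09 to 2.54 CPM, lay below the lower bounds of both resistant values, 10.2 and 13.3 CPM. Such intervals cover counting error only, and the spread between parental clones was not measured. The log2 fold change was 2.97 ± 0.54 (SE), with an adjusted p of 0.0351 (edgeR). This call was lost in a setting chosen after seeing the data, in which the quasi-likelihood fit used adjusted deviances (adjusted p = 0.0665, edgeR). The default of the tool was kept as the main setting with both outcomes known. Over the 5 fits that gave a test, its adjusted p ranged from 0.000131 to 0.0665 (edgeR and DESeq2). By the deposited group means, 5637GR had 151.1 normalized counts of S100A14 against 29.9 for 5637P, which is 2.30 on the log2 scale after a pseudocount of 1. On the CPM scale, the resistant group mean was 10.4, below both resistant libraries, and the parental group mean was 2.03. The group means also draw on libraries not used here one by one. The size of the rise in S100A14 therefore depended on the libraries taken, at 2.97 by the fit and 2.30 by the group means.

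S100A9 (ENSG00000163220, chromosome 1, 153330330 to 153333503, plus strand) encodes a subunit of calprotectin. The parental library held 47 reads, or 3.34 CPM, and the resistant libraries 5 and 6 reads, or 0.306 and 0.346 CPM. The resistant values were 10.9-fold and 9.65-fold below the parental one. Their exact Poisson intervals ended at 0.714 and 0.753 CPM, below the parental interval of 2.45 to 4.44 CPM. The intervals cover counting error within each library, not the spread between clones. A difference was also needed for S100A9 to pass the filter. The log2 fold change was -3.32 ± 0.74 (SE), and the adjusted p of 0.0860 (edgeR) missed the threshold. S100A9 was called with DESeq2 size factors in place of TMM (adjusted p = 0.0452, edgeR) and without a filter on low counts (adjusted p = 0.000401, edgeR), but not by DESeq2 (adjusted p = 0.307). The gap was wider between the deposited group means, with 755.1 normalized counts for 5637P against 4.72 for 5637GR (log2 ratio -7.05). On the CPM scale, the parental group mean was 51.3, which is 15.4 times the level of parental library 1. The size of the difference in S100A9 therefore depended on which parental value was taken. The resistant group mean of 0.324 CPM lay between the 2 resistant libraries.

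The sequences just before the RefSeq starts of S100A14 and S100A9 are shown because these members had the fitted changes of largest size, in opposite directions. Each is 250 bases, 5′ to 3′ on the strand of the gene, with the letters TATAA in capitals (GRCh38.p14, chr1:153616326-153616575, minus strand, for S100A14, and chr1:153357604-153357853, plus strand, for S100A9).
S100A14: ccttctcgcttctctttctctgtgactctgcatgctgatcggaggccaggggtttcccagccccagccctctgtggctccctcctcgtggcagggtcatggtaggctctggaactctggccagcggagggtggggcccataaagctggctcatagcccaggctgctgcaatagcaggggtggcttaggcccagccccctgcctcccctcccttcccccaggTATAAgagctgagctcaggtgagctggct
S100A9: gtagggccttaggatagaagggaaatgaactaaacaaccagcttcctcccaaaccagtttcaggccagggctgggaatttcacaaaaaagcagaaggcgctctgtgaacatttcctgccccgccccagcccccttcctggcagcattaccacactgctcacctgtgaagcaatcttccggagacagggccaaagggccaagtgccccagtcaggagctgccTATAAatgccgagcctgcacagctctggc
Both sequences held TATAA once, with its first base at position -29 from the start, and the GC content was 63.2% for S100A14 and 55.6% for S100A9. Windows of 250 bases before to 50 after a start were searched for every gene. TATAA on the strand of the gene was in 14.8% of 35116 windows. Of the 9 members, which have 12 windows, 6 had it in at least 1 window: S100A4, S100A6, S100A8, S100A9, S100A14 and S100P. Here and below, members are counted by gene and the background by window, so the shares are not comparable. The members without it, S100A2, S100A10 and S100A11, are among the 4 most abundant. On either strand, the AP-1 letters TGANTCA were in 7.71% of windows and in S100A2 alone among members. The letters CCGTTA, a core bound by OVO family factors, were in 3.07% of windows and in S100A4 alone. GGGCGG, the GC box, was in 45.0% of windows and in S100A6, S100A9, S100A10 and S100A11. A match is a description of letters, no match says only that they are not in the window, and the start used in these cells was not tested.

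**Figure D1:**
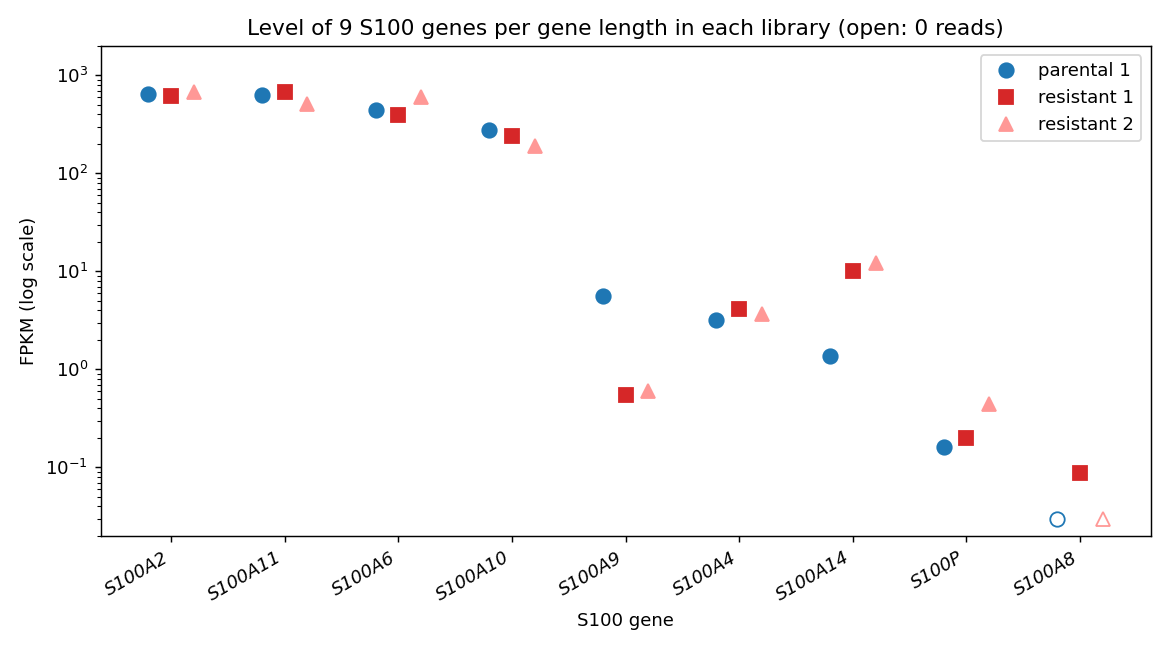
FPKM (reads scaled by gene length and library total, log axis) of 9 S100 genes in parental library 1 and resistant libraries 1 and 2, with open symbols at the foot for 0 reads. S100A2, S100A11, S100A6 and S100A10 lie between 192 and 677 FPKM in every library, while S100A14 lies at 1.36 FPKM in the parental library and at 10.0 and 12.3 FPKM in the resistant ones.

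To compare levels between genes, the deposited FPKM values were used, which scale reads by gene length and library total. In each labelled library the members fell into an abundant and a scarce group. S100A2, S100A11, S100A6 and S100A10 had 642.9, 632.4, 441.6 and 276.0 FPKM in the parental library. In resistant library 1 they had 615.8, 676.9, 393.0 and 239.5 FPKM, and in resistant library 2 they had 675.2, 505.4, 595.6 and 191.7 FPKM, with the genes listed alike. These 4 genes ranked between 32 and 219 among all genes of the table and held 98.9% to 99.5% of the reads of the members. The 9 members together took 0.165% of all reads in the parental library and 0.159% and 0.162% in the resistant libraries, so the sum differed little between the groups. S100A10 was the lowest of the 4 in each library, whereas S100A2, S100A11 and S100A6 exchanged places between libraries. Among the scarce members, S100A9 stood above S100A4 and S100A14 in the parental library, at 5.63 against 3.20 and 1.36 FPKM. In both resistant libraries this order was turned, with S100A14 above S100A4 and S100A9 below it. By the parental group mean S100A9 was higher, at 51.3 CPM, which is 15.4 times its level in parental library 1. Its place among the scarce members of the parental group therefore rests on that library.

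S100A2 (ENSG00000196754, chromosome 1, 153533584 to 153540366), an S100 protein of basal epithelium, gave 659.7 CPM in parental library 1, 595.7 in resistant library 1 and 678.3 in resistant library 2. The parental value lay between the resistant ones. The log2 fold change was -0.05 ± 0.36 (SE), with an adjusted p of 0.991 (edgeR), and the group means gave a log2 ratio of 0.01. S100A6 (ENSG00000197956, chromosome 1, 153507075 to 153508720), also named calcyclin, had 305.6 CPM in the parental library and 256.4 and 403.6 CPM in the resistant libraries. One resistant library was below the parental one and the other above it, and their own log2 difference of 0.65 exceeded the fitted fold change of 0.11 ± 0.40 (SE, adjusted p = 0.980, edgeR). Of the 2410 tested genes with a mean of at least 100 CPM, 19.8% were at least 1.5-fold apart between the resistant libraries, as S100A6 was.

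S100A10 and S100A11 encode proteins that bind annexins, ANXA2 for S100A10 and ANXA1 for S100A11. S100A10 (ENSG00000197747, chromosome 1, 151955391 to 151966866), which has lost the ability to bind calcium, had 341.2 CPM in the parental library and 279.1 and 232.0 CPM in the resistant libraries. Both resistant values were below the parental one, but the log2 fold change of -0.42 ± 0.36 (SE) did not pass the test (adjusted p = 0.832, edgeR), and the group means gave -0.31. S100A11 (ENSG00000163191, chromosome 1, 152004982 to 152020383) gave 386.3 CPM in parental library 1, 389.7 in resistant library 1 and 302.2 in resistant library 2. Resistant library 1 was close to the parental library and library 2 was lower, for a log2 fold change of -0.16 ± 0.37 (SE, adjusted p = 0.964, edgeR). S100A4 (ENSG00000196154, chromosome 1, 153516089 to 153522612), which binds the heavy chain of non-muscle myosin and is linked to cell motility, had 35, 50 and 49 reads, or 2.49, 3.06 and 2.82 CPM. The 3 Poisson intervals overlapped, and the log2 fold change of 0.24 ± 0.60 (SE) had an adjusted p of 0.966 (edgeR). The model of S100A4 overlaps that of S100A3 over 2044 bases on the same strand, so reads of the overlap may be split between them by the counting.

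S100A8 and S100P were near or at the limit of detection. S100A8 (ENSG00000143546, chromosome 1, 153362508 to 153363664), the partner of S100A9 in calprotectin, had 0 reads in the parental library, 1 in resistant library 1 and 0 in resistant library 2. With 3 reads taken as the limit that a count of 0 allows, its level could be up to 0.213 CPM in the parental library and 0.173 CPM in resistant library 2, and no fold is given. S100P (ENSG00000163993, chromosome 4, 6694796 to 6698897, plus strand), which binds ezrin and is the member outside chromosome 1, had 3, 4 and 10 reads. Its ratio of resistant to parental CPM was 1.95, with a 95% exact interval of 0.544 to 10.6 that covers counting error only. A difference in S100P was not detectable at this depth.

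**Figure D2:**
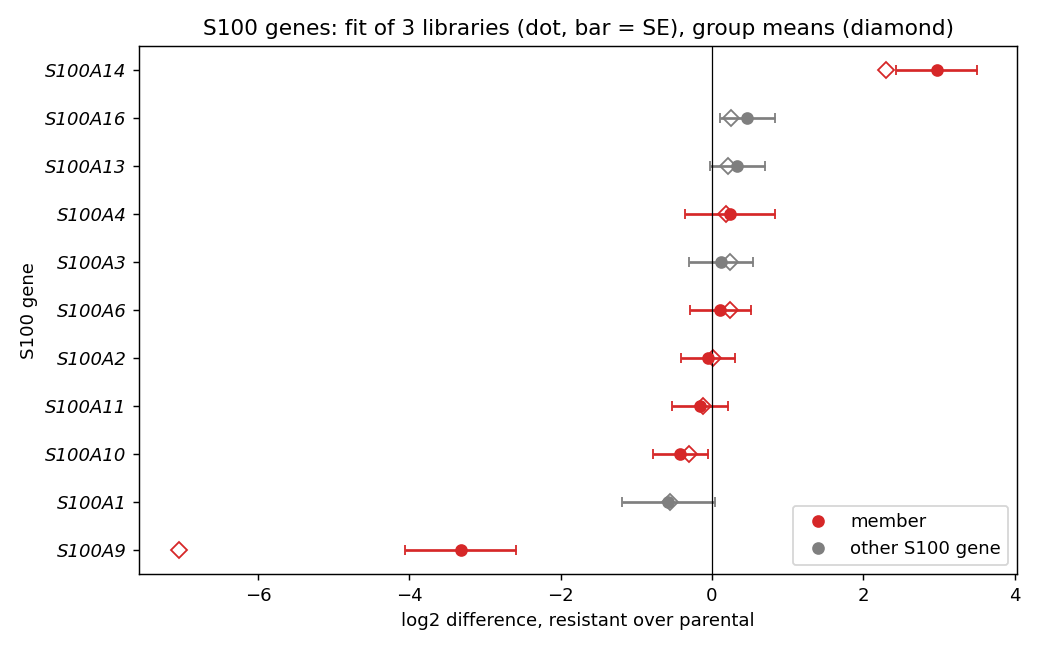
Log2 difference of the resistant over the parental line for 7 members (red) and 4 other S100 genes (grey) that entered the fit, as the fitted fold change of 3 libraries (dots, bars are 1 SE) and as the ratio of the deposited group means (diamonds). S100A14 at 2.97 and S100A9 at -3.32 stand apart, and the other 9 genes lie between -0.58 and 0.46.

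The fitted values of the members lay on both sides of 0. The median log2 fold change of the 7 tested members was -0.05, against 0.03 over all tested genes, and the sign of that median depended on the library (0.04 without resistant replicate 1). Both resistant libraries were at least 2-fold above the parental one for S100A14, a pattern shown by 5.21% of tested genes. Both were at least 2-fold below it for S100A9, as for 3.65% of tested genes. With a minimum of 10 normalized counts on average, 14630 genes remained and 6.36% had group means at least 2-fold apart. S100A14 was among the 3.21% that were higher in 5637GR, and S100A9 among the 3.15% that were lower.

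Further S100 genes were taken from a list of 11, of which 8 were found and 4 entered the fit. None of the 4 was called by edgeR or DESeq2, and 0 had an unadjusted p under 0.05 (edgeR). Over all genes these shares were 0.876% (edgeR), 1.67% (DESeq2) and 9.7% (unadjusted p). S100A16 had 241.2 CPM in the parental library and 329.0 and 336.6 CPM in the resistant libraries, a log2 fold change of 0.46 ± 0.36 (SE, adjusted p = 0.795, edgeR). S100A13 had 27.1, 36.9 and 31.4 CPM, S100A3 had 154, 177 and 226 reads, and S100A1 had 4.26, 3.86 and 1.84 CPM, in the order parental, resistant 1 and resistant 2. S100A1 overlaps S100A13 over 4112 bases on the opposite strand, and the use of strand in counting is not given in the sources used here, so their reads may not be told apart. S100A5 had 3, 5 and 10 reads, and the remaining 3 genes had at most 1 read in any library.

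S100A16 and S100A13 are the S100 genes nearest to S100A14 on the chromosome, and their difference from it was not tested. S100A16 lies 1109 bases from one end of S100A14 and S100A13 lies 1800 bases from the other, and neither was called. From S100A10 to S100A14, over 1.63 Mb, 42 genes had a row and 19 entered the fit. Of these, 2 were called by edgeR, which called 0.876% of all tested genes. Both were higher: S100A14 and SPRR2D. DESeq2 called 3, where it called 1.67% of all genes to which it gave an adjusted p, and 7 had an unadjusted p under 0.05 (edgeR), as did 9.7% of all tested genes. Of the 19, 5 passed the filter through the resistant libraries alone (HRNR, SPRR1A, SPRR2A, SPRR2D and SPRR2F) and S100A9 through the parental library alone, so that a difference was needed for their entry. These 6 genes hold 1 of the 2 calls and 5 of the 7 unadjusted p-values, and the counts are not read as a result about the stretch. The median log2 fold change of the 19 genes, which includes them, was 0.51, and by the group means it was 0.19. In the 500 kb on either side, 0 of 27 tested genes were called by edgeR and 0 by DESeq2, 2 had an unadjusted p under 0.05 (edgeR), and their median was 0.14.

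**Figure D3:**
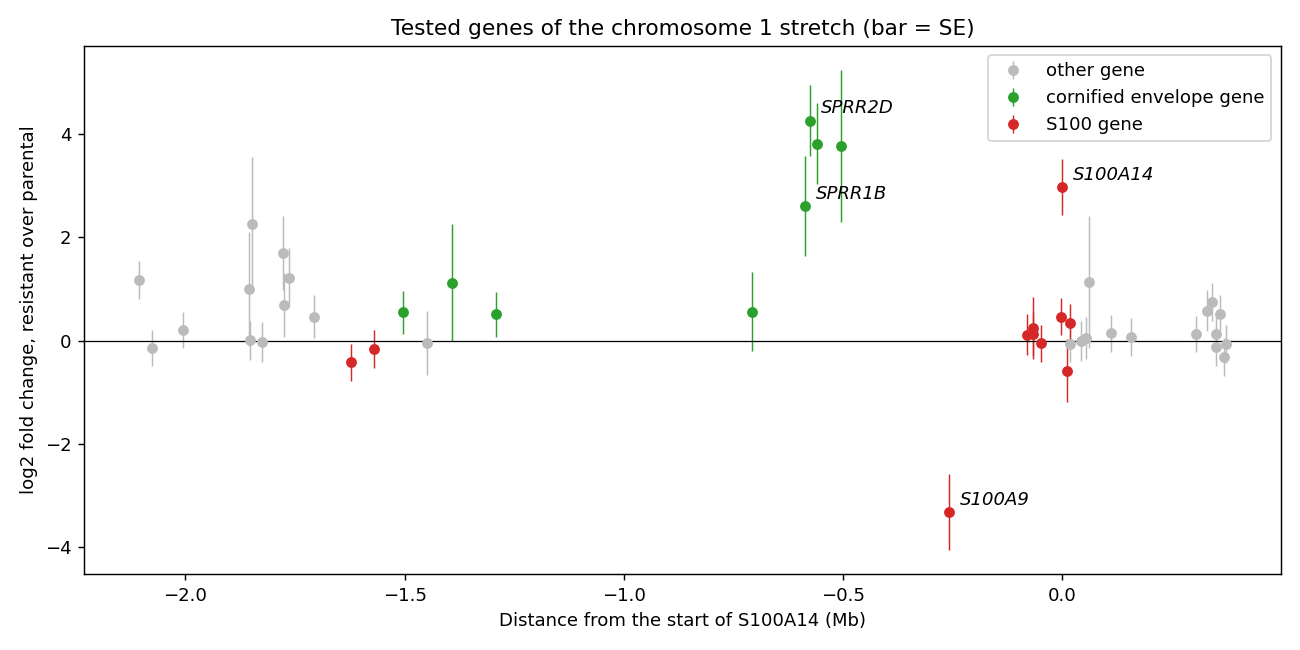
Log2 fold change of the resistant over the parental line (edgeR fit of 3 libraries, bars are 1 SE) for tested genes of the S100 stretch and 500 kb on either side, against the distance of their start from that of S100A14 in Mb. SPRR1A, with 0 reads in the parental library, is not drawn. SPRR2D at 4.26 and S100A14 at 2.97 are high, S100A9 at -3.32 is low, and S100A16 and S100A13, beside S100A14, are at 0.46 and 0.34.

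The cornified envelope genes interspersed with the S100 genes encode the cross-linked shell of differentiated squamous cells. Of 19 listed, 15 were found and 10 entered the fit. Of these, edgeR called 1 as higher and 0 as lower, against 0.294% and 0.582% of all tested genes. DESeq2 called 2 of the 10, and 1.67% of all genes to which it gave an adjusted p. The median log2 fold change of the 10 was 0.84, and by the group means it was 0.02. HRNR, SPRR1A, SPRR2A and SPRR2D, 4 of these 10, passed the filter through the resistant libraries alone, so their entry required a difference. TGM1 at -0.72 (adjusted p = 0.751, edgeR) and CNFN at -0.10 (adjusted p = 0.991, edgeR) were below 0, and the rest were above it. FLG and TCHH were at 0.51 and 0.55, and neither was called by edgeR. SPRR2D gave 0.568 CPM in parental library 1 from 8 reads, 8.14 in resistant library 1 and 13.9 in resistant library 2 (log2 fold change 4.26 ± 0.68 SE, adjusted p = 0.0219, edgeR). SPRR2A gave 0.355 CPM in the parental library and 3.86 and 6.34 CPM in the resistant ones, with an adjusted p of 0.0609 (edgeR). The group means were closer together. For SPRR2D they were 92.4 normalized counts for 5637P and 108.2 for 5637GR, and for SPRR2A 67.3 and 51.7. Parental library 1 lay below the parental group mean in CPM by 12.9 times for SPRR2A, as it did by 15.4 times for S100A9. For S100A14 the same ratio was 1.19 and for S100A2 1.08. The SPRR2 genes are near-identical copies, so the split of reads among them is uncertain.

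**Figure D4:**
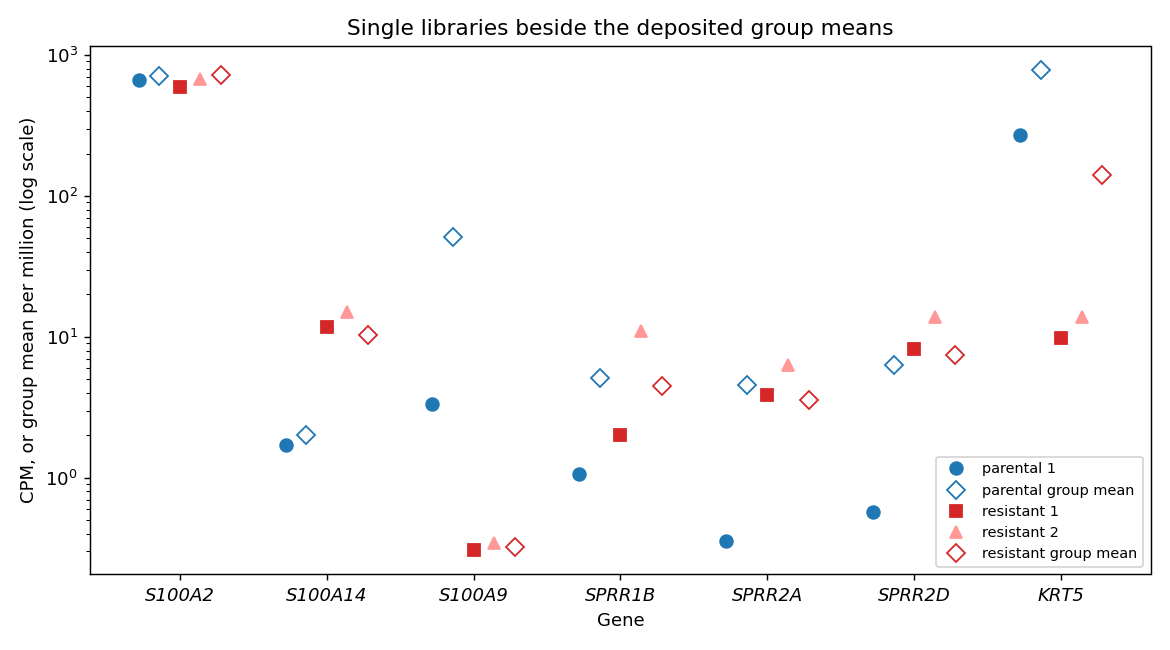
CPM of each library (filled symbols) beside the deposited group mean as CPM (open diamonds) on a log axis, for S100A2, S100A14, S100A9, 3 SPRR genes and KRT5. The parental group mean is close to parental library 1 for S100A2 and S100A14 but 15.4 times above it for S100A9, 12.9 times for SPRR2A and 2.88 times for KRT5, and the resistant group mean of KRT5, at 140.6 CPM, is far above both resistant libraries.

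Partners and receptors of S100 proteins were taken from a list of 15, all found and all tested. Of these, 0 were called by edgeR or DESeq2, with 0 at an unadjusted p under 0.05 (edgeR). The shares over all genes were 0.876% (edgeR), 1.67% (DESeq2) and 9.7% (unadjusted p), so few calls were to be had among 15 genes. Their median log2 fold change was -0.09, between -0.63 and 0.73. AHNAK, a scaffold bound by S100A10 with ANXA2, had 755.1 CPM in the parental library and 504.3 and 472.8 CPM in the resistant libraries (log2 fold change -0.63 ± 0.35 SE, adjusted p = 0.638, edgeR). ANXA2 itself gave 1605, 1677 and 1282 CPM and ANXA1 440.2, 598.6 and 414.0 CPM, in the order parental, resistant 1 and resistant 2. TLR4, a receptor of calprotectin, had 34.7 CPM in the parental library and 56.9 and 58.4 CPM in the resistant ones (log2 fold change 0.73 ± 0.36 SE, adjusted p = 0.569, edgeR), and AGER 2.98, 2.75 and 3.23 CPM.

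The cells had the markers of an epithelial line. All 12 epithelial markers were found, with EPCAM at 285.3, 337.8 and 291.5 CPM, and KRT19 at 4311, 3593 and 4790 CPM. Of these 12, edgeR called 1, KRT5, where it called 0.876% of all tested genes. DESeq2 called 3 of the 12, and 1.67% of all genes to which it gave an adjusted p. The fitted values of the 12 ran from -4.52 to 0.14, with a median of -0.59. KRT5, a keratin of basal epithelium, had 272.0 CPM in the parental library and 9.79 and 13.8 CPM in the resistant libraries. Its log2 fold change was -4.52 ± 0.38 (SE), with an adjusted p of 0.000600 (edgeR). The group means of KRT5 were 783.7 CPM for 5637P and 140.6 CPM for 5637GR, a smaller log2 ratio of -2.50, and the second lies far above both resistant libraries. KRT13 and KRT17 had log2 fold changes of -2.21 and -2.47 and adjusted p-values of 0.0540 and 0.0784 (edgeR). KRT7 and KRT8 had -1.05 and -0.76, with adjusted p-values of 0.304 and 0.588 (edgeR). Both resistant libraries were at least 2-fold below the parental one for 3 of the 12 markers, as for 3.65% of tested genes. Leukocyte markers, which bear on S100A9, summed to 3.27, 2.69 and 2.77 CPM over the 8 of 9 that were found. MPO, a granule enzyme of neutrophils, gave most of the parental sum, with 35, 13 and 22 reads and a log2 fold change of -1.26 ± 0.70 (SE, adjusted p = 0.638, edgeR). CD14, a monocyte marker, had 3, 12 and 18 reads. The pan-leukocyte marker PTPRC had 4, 3 and 2 reads and the neutrophil receptor CSF3R had 0, 0 and 4, both singled out after their values were seen. Each library is from a single-cell clone of a cultured line, and the part of other cell types in the S100A9 difference was not tested. Of 9 stromal markers, 7 were found, and they summed to 172.9, 155.3 and 146.4 CPM, nearly all from COL1A1 and COL1A2. In bulk samples fewer cells with a transcript and less of it per cell cannot be told apart.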

How the data were processed

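RNA of clones of 5637P and 5637GR was sequenced by Novogene on an Illumina instrument. The authors deposited raw read counts per gene and library, FPKM, and per group a signal, the mean of read counts after size-factor scaling by DESeq2. Per the labels the build is hg19 and base calling used CASAVA 1.8. The aligner, counter and annotation are not given in the sources used here. The table also holds fold changes and p-values of the authors' comparison, which were not used, and 6 columns of per-library values without a sample label, also not used. FPKM was recomputed from reads, gene length and library totals and matched.

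Counts of 3 libraries were fitted with edgeR 4.0.16 (R 4.3.3): filterByExpr, TMM, glmQLFit and glmQLFTest with default settings, Benjamini-Hochberg adjustment over all tested genes, and calls at an adjusted p under 0.05. One residual degree of freedom comes from the resistant pair. The variant of glmQLFit was not fixed in the design, and its default was kept with the calls of both variants known. DESeq2 1.42.0 was an alternative. The steps were tested on simulated data. Tables and figures used Python 3.11.15, pandas 2.3.3, scipy 1.17.1 and matplotlib 3.10.9. A count of 3 set the floor, and intervals and floors cover counting error only. The members and lists were chosen with earlier results of these data known. The rule for named genes took every member and allowed listed genes with at least 10 reads in 1 library. Not every listed gene that met it is named, and PTPRC and CSF3R are named outside it, so the named genes are a selection. All of these p-values rest on the spread between the resistant pair of clones, each sequenced once. None of them measures the spread between parental clones.

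Promoter sequences are from RefSeq (GRCh38.p14), where all 9 members matched, and hg19 coordinates were kept apart from them.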

Additional observations from a re-analysis of the deposited data

How the results depend on the processing

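The count of called members was 1 (edgeR). It was 2 with DESeq2 size factors, 2 without a filter on low counts and 2 at an adjusted p under 0.1, S100A9 being the gene gained. It was 0 with adjusted deviances, a setting chosen after seeing the data, in which S100A14 had an adjusted p of 0.0665 (edgeR) and 91 genes of all those tested were called. Over all genes, 137 were called in the main setting, and 235 with DESeq2 size factors, 534 without the filter, when 26434 genes were tested, 246 by DESeq2 and 229 at an adjusted p under 0.1. At an unadjusted p under 0.05, 1517 genes passed (edgeR). The causes were not tested.

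The median log2 fold change of the tested members, -0.05, reversed in sign with the deposited group means (0.01) and ranged from -0.141 without resistant replicate 2 to 0.038 without resistant replicate 1. Among single members, S100A2 reversed with the group means (0.01). With a resistant replicate left out, S100A2 ranged from -0.141 to 0.038, S100A6 from -0.247 to 0.399 and S100A11 from -0.356 to 0.019. S100A14 stayed between 2.30 and 3.13 and S100A9 between -7.05 and -3.24 over all settings. The 2 members at least 2-fold apart in both resistant libraries stayed 2 at 1.5-fold and with either resistant replicate left out. Each of these rules is looser than the main one, so the count could only stay or rise. The median log2 ratio of the group means stayed within 0.03 under other pseudocounts and scaling.

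Leaving out a resistant replicate gave values with no test, and the parental library could not be left out. No paired analysis was possible, because the labels do not pair parental with resistant clones and a shared replicate number is not a pairing. With 1 parental library, the spread between parental clones was not measured, and low members such as S100P and S100A8 are limited by depth.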

Other observations

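Of the 10 cornified envelope genes tested, 3 were at least 2-fold higher in resistant library 2 than in library 1: SPRR1A, SPRR1B and IVL. Among all tested genes, 11.4% were at least 2-fold apart between these libraries in either direction, and among the 7 tested members 0 were. Of the 4 other S100 genes tested 1 was, S100A1, which was lower in resistant library 2. SPRR1B, a precursor of the cornified envelope, had 15 reads in the parental library, 33 in resistant library 1 and 190 in resistant library 2. IVL, which encodes involucrin, had 28, 23 and 77 reads, and SPRR1A 0, 2 and 23. With 1 library on each side, none of these differences between the resistant libraries was tested.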
